A study of Mus musculus with 23 samples.

Results

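Glutamate and GABA receptor subunit genes were followed in 23 single neurons of the mouse arcuate hypothalamus, each sequenced as 1 library. The members were chosen by gene symbol alone, as every gene of the ionotropic glutamate, metabotropic glutamate, GABA-A and GABA-B receptor families, and 48 of the 23400 genes in the table carried such a symbol. One of them encodes a scaffold protein rather than a subunit and was listed at 0 in all 23 cells. The remaining 47 comprised 18 ionotropic glutamate receptor genes, 8 metabotropic glutamate receptor genes, 19 GABA-A receptor genes and 2 GABA-B receptor genes. Each had 1 row in the table.

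The arcuate nucleus, next to the floor of the third ventricle, holds neurons that control feeding, growth and reproduction. All 23 cells came from 2 young adult male mice of mixed background that carried vGLUT2-IRES-Cre and loxSTOPlox-L10-GFP. In this model, Cre expressed with VGLUT2, the vesicular glutamate transporter of most hypothalamic excitatory neurons, permanently switches on a GFP fused to a ribosomal protein, so a GFP-positive cell has expressed VGLUT2 at present or at some earlier time. The cells were picked by hand as GFP-positive. No mouse of origin is given for a cell, no cell was treated, and cells of the same mouse are not replicates, so all values below are descriptions without a test between cells.

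Values are FPKM, that is, fragment counts divided by transcript length and by the fragments mapped in the library. Comparisons between genes rest on this scaling per length. Whether long and short transcripts were recovered equally was not tested. A cell was counted as having a transcript at 1 FPKM or more. Cells were divided by peptide transcript into 8 Pomc-high cells with 1000 FPKM or more of Pomc (cells 4, 5, 6, 11, 12, 13, 21 and 22), 5 Kiss1-high cells with 500 FPKM or more of Kiss1 (cells 8, 17, 19, 20 and 23) and 10 other cells. Pomc encodes proopiomelanocortin, from which the satiety signal alpha-MSH is cut, and Kiss1 the precursor of kisspeptin, which drives the reproductive axis. The values next to the thresholds were 1488 FPKM inside and 922 FPKM outside for Pomc, and 895 FPKM inside and 62.5 FPKM outside for Kiss1.

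Fast excitation in the brain runs through AMPA receptors, with kainate and NMDA receptors adding slower and voltage-dependent components. Fast inhibition runs through GABA-A receptors, pentamers that most often join alpha, beta and gamma subunits, and the metabotropic glutamate and GABA-B receptors act through G proteins. Arcuate neurons receive both kinds of input, and the subunits that a cell makes set the kinetics, conductance and drug sensitivity of its receptors.

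The cells were neuronal by their markers, and 5 of 6 pan-neuronal markers reached 1 FPKM in all 23 cells. Slc17a6, which encodes VGLUT2, did so in 22 cells. No gene of the astrocyte, oligodendrocyte, precursor, microglial or vascular lists did so in 12 or more cells. The exception among non-neuronal lists was Vim, an intermediate filament gene of the tanycyte and ependyma list, in 14 cells. The median cell had 7090 genes at 1 FPKM. Cell 17 stood apart with 4054 genes. For several results that it alone decided, the value without it is given beside it. Titles of cells 1 to 15 and of cells 16 to 23 carry different prefixes, called set 1 (15 cells) and set 2 (8 cells), which the labels do not explain. Set 1 held 6 Pomc-high, 1 Kiss1-high and 8 other cells, and set 2 held 2, 4 and 2.

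Receptor subunit transcripts were widespread in these neurons. One cell or more had 39 of the 47 subunit genes (83.0%) at 1 FPKM, and 12 cells or more had 21 of them (44.7%), against 63.7% and 27.8% of all 23400 genes. Leaving out cell 17 gave 20 members in 12 or more cells, a setting in which all genes were not counted. The level of 1 FPKM was reached in all 23 cells by 4 members, among them Gria1, Gria2 and Gabbr1, and by 7.2% of all genes. A single cell had a median of 21 subunit genes at 1 FPKM, from 7 in cell 17 (next lowest 15, in cell 19) to 27 in cell 9. The summed FPKM of all members had a median of 473 and ran from 209 in cell 12 to 819 in cell 9, which was a median of 0.0903% of a cell's total FPKM. The number of members per cell followed the number of genes detected in the cell, with Spearman's rho 0.51 over 23 cells and 0.44 without cell 17. These points share 1 library each, so the relation is a description of detection.

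The subunit genes that reached 1 FPKM in no cell numbered 8. These were Grin2c, which encodes an NMDA subunit prominent in cerebellum, the metabotropic receptor genes Grm3, Grm4 and Grm6, and the GABA-A genes Gabra6, Gabrd, Gabrp and Gabrr3. Grm6, Gabra6, Gabrd and Gabrr3 were listed at 0 in every cell, as were 25.6% of all genes. Gabrd encodes the delta subunit of extrasynaptic receptors and Gabra6 its usual partner in cerebellar granule cells. With 0 of 23 cells, the exact Clopper-Pearson 95% interval still allows a share of up to 14.8% of cells for each of these genes. Intervals here cover counting of cells only.

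**Figure D1:**
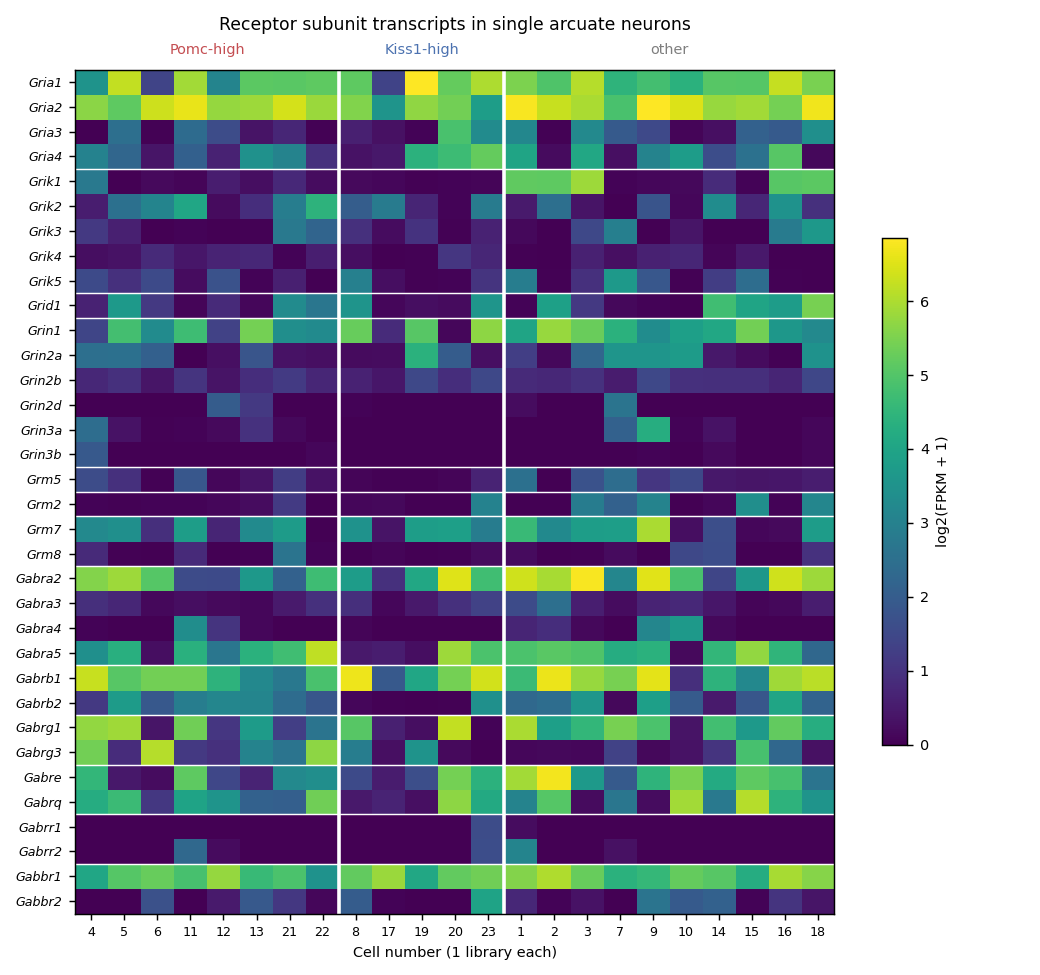
Level of subunit genes that reached 1 FPKM in at least 1 cell, as log2(FPKM + 1) by colour, with 1 column per cell and cells ordered as Pomc-high, Kiss1-high and other. Gria1, Gria2 and Gabbr1 are present in every column, the kainate, Grin2 and metabotropic rows are patchy, and cell 17 has the fewest members at 1 FPKM (7).

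AMPA receptors were the most abundant ionotropic glutamate receptors. The summed FPKM of the 4 AMPA genes had a median of 116 and ran from 12.9 in cell 17 to 184 in cell 19. Without cell 17 the lowest sum was 52.5 FPKM, in cell 7. Gria2 (chromosome 3, 80684936 to 80802791 in mm10, minus strand) encodes GluA2, the subunit that makes edited AMPA receptors impermeable to calcium. It was at 10 FPKM or more in all 23 cells, with a median of 55.5 and a highest value of 114 FPKM. Its lowest value was 10.7 FPKM in cell 17, and 13.1 FPKM without that cell. Gria2 was the highest AMPA gene in 18 cells, and it made up a median of 60.9% of the AMPA sum, from 10.8% in cell 23 to 97.6% in cell 6.

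The other AMPA genes had lower medians and wider ranges for their level. Gria1 (chromosome 11, 57011618 to 57330244, plus strand) encodes GluA1, a subunit known for activity-dependent delivery to synapses. It had a median of 34.1 and a highest value of 113 FPKM, and it was the highest AMPA gene in the remaining 5 cells. Its lowest value was 1.58 FPKM in cell 17, and 1.64 FPKM without that cell. Gria4 reached 1 FPKM in 15 cells with a median of 4.88 FPKM, and Gria3 in 12 cells with a median of 1.83 FPKM. Both encode further AMPA subunits, GluA4 and GluA3. In Kiss1-high cells 20 and 23, Gria4 was at 24.7 and 36.8 FPKM and Gria3 at 28.4 and 8.84 FPKM.

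NMDA receptors need the obligatory subunit GluN1, encoded by Grin1, and a GluN2 subunit that sets their kinetics. Grin1 (chromosome 2, 25291177 to 25319163, minus strand) reached 1 FPKM in 21 cells, with a median of 15.0 and a highest value of 54.6 FPKM, and was lowest in Kiss1-high cells 20 and 17 at 0.0905 and 0.794 FPKM. It made up a median of 85.4% of the NMDA sum, which had a median of 26.3 FPKM. Its locus overlaps that of Lrrc26 on the opposite strand, and since this library method keeps no strand, reads of the pair cannot be told apart where they overlap.

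The GluN2 genes were low in comparison with Grin1. Grin2a, which encodes the GluN2A subunit of fast receptors, reached 1 FPKM in 12 cells, with a median of 1.39 and a highest value of 19.7 FPKM. Grin2b, which encodes the slower GluN2B, was above 0 in all 23 cells but within a narrow range, from 0.286 to 1.78 FPKM with a median of 0.871, and passed 1 FPKM in 6 cells. Grin2d passed it in 3 cells and the GluN3 genes Grin3a and Grin3b in 3 and 1, where Grin3b overlaps Tmem259 on the opposite strand. At 1 FPKM, Grin1 was found together with at least 1 Grin2 gene in 15 cells (65.2%, exact 95% interval 42.7 to 83.6%) and without any in 6. These counts turn on small differences, since Grin2b lay close to the threshold on both sides.

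Kainate receptor subunits split the cells by level. Grik1, which encodes the pore-forming GluK1, was at 34.97, 34.4, 57.0, 32.3 and 33.8 FPKM in other cells 1, 2, 3, 16 and 18 and at 5.82 FPKM in Pomc-high cell 4. In the remaining 17 cells it did not exceed 0.795 FPKM. The cells with high Grik1 came from both title sets. Grik2, which encodes GluK2, reached 1 FPKM in 12 cells with a median of 2.45 and a highest value of 20.5 FPKM, and shared 2 cells, 2 and 16, with Grik1 at that level. The remaining kainate genes Grik3, Grik4 and Grik5 reached 1 FPKM in 7, 1 and 10 cells, Grik4 and Grik5 encoding the high-affinity subunits that need GluK1, GluK2 or GluK3 as partners.

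**Figure D2:**
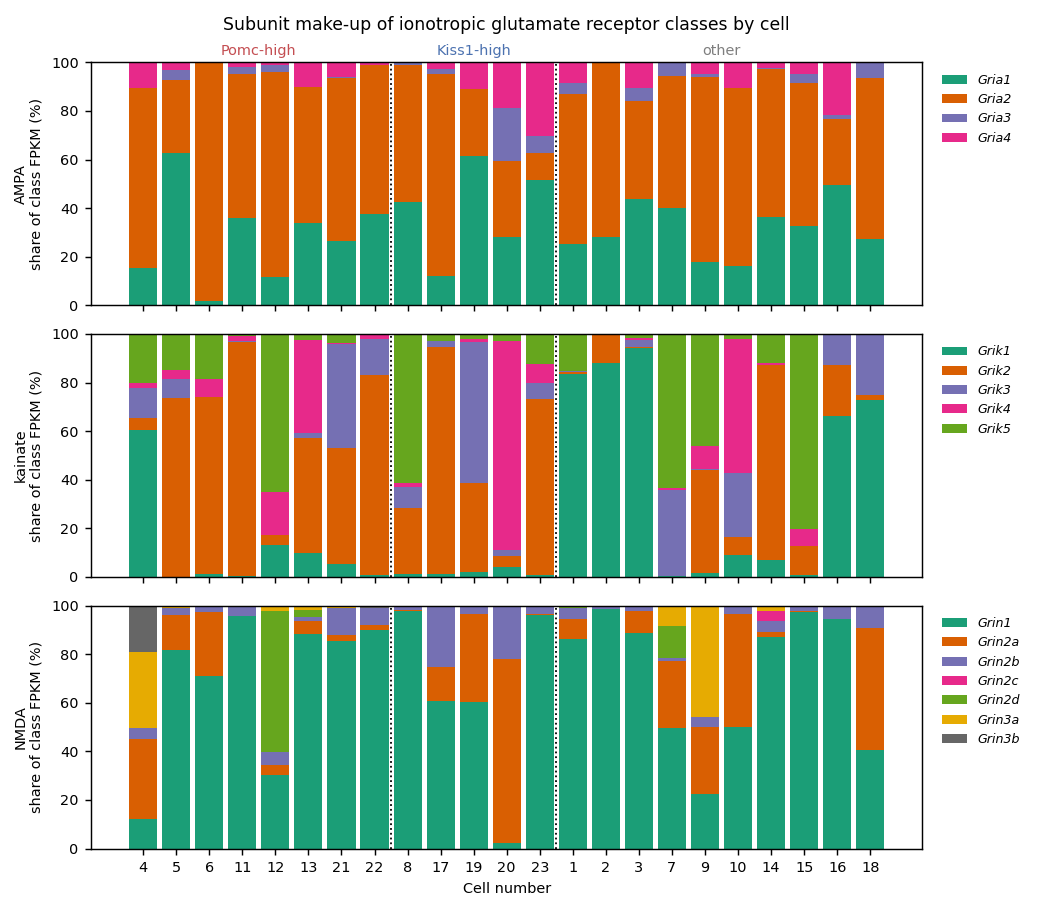
Share of each subunit gene in the summed FPKM of its class, in percent, for AMPA, kainate and NMDA genes, with 1 bar per cell ordered as Pomc-high, Kiss1-high and other. Gria2 has the largest share of the AMPA bar in 18 cells, the kainate bars vary in their leading gene, with Grik2 at a median of 27.3%, and Grin1 makes up a median of 85.4% of the NMDA bar.

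Delta receptors, which bind secreted cerebellins and act mainly as synaptic adhesion proteins, were found in part of the cells. Grid1 reached 1 FPKM in 12 cells, with a median of 1.19 and a highest value of 42.9 FPKM in cell 18.

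Among metabotropic glutamate receptor genes, Grm7 was found in the most cells. This gene encodes mGlu7, a group III receptor that dampens release from presynaptic terminals. It reached 1 FPKM in 16 cells, with a median of 8.75 FPKM and a highest value of 62.3 FPKM in cell 9. The next group III gene, Grm8, did so in 3 cells. Of group I, whose receptors activate phospholipase C, Grm5 reached 1 FPKM in 8 cells with a median of 0.355 and a highest value of 4.74 FPKM. The group I sum, which includes a member not named here, had a median of 4.69 FPKM, so Grm5 does not stand for the level of this group. Of group II, whose receptors inhibit adenylyl cyclase, Grm2 reached 1 FPKM in 7 cells with a highest value of 9.36 FPKM.

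GABA-A subunit transcripts exceeded those of ionotropic glutamate receptors in 17 of 23 cells. The 19 GABA-A genes summed to a median of 262 FPKM (67.9 to 479), and the 18 ionotropic glutamate genes to a median of 159 FPKM (21.03 to 269, and 73.3 to 269 without cell 17). The ratio of the GABA-A sum to the ionotropic glutamate sum had a median of 1.49, from 0.310 in Kiss1-high cell 19 to 17.8 in Kiss1-high cell 17. In cell 17, gamma genes made up 361 of the 374 FPKM of the GABA-A sum, and 3 GABA-A genes reached 1 FPKM. Without cell 17 the highest ratio was 3.55, in Pomc-high cell 4.

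The alpha subunits form the benzodiazepine site together with gamma. Gabra2, which encodes the alpha-2 subunit, reached 1 FPKM in 22 cells, all but cell 17 (0.944 FPKM). It had a median of 25.9 and a highest value of 109.6 FPKM in cell 3, and was the highest alpha gene in 14 cells. Gabra5, which encodes alpha-5, a subunit known from tonic inhibition, reached it in 18 cells with a median of 19.8 and a highest value of 72.5 FPKM, and was the highest in the other 9 cells. The median shares of the alpha sum, which had a median of 61.7 FPKM, were 59.9% for Gabra2 and 30.3% for Gabra5. Gabra5 was highest in 5 of 8 Pomc-high cells, 1 of 5 Kiss1-high cells and 3 of 10 other cells.

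Gabra4 and Gabra3 were scarce. Gabra4 reached 1 FPKM in cells 9, 10, 11 and 12, with a highest value of 12.1 FPKM, and it was above 0 in 11 of the 15 set 1 cells and in 0 of the 8 set 2 cells. Gabra3 reached it in 3 cells with a highest value of 4.63 FPKM.

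The beta subunits, which carry part of the GABA binding site, summed to a median of 75.2 FPKM. Gabrb1 reached 1 FPKM in 22 cells with a median of 40.8 and a highest value of 101 FPKM, and was the highest beta gene in 14 cells. It fell short of 1 FPKM in other cell 10, at 0.888 FPKM. Gabrb2 reached it in 17 cells with a median of 3.51 FPKM and was the highest beta gene in cell 10 alone.

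The gamma subunits anchor receptors at synapses, and their sum had a median of 66.02 FPKM. Gabrg1, which encodes gamma-1, a subunit that lowers benzodiazepine sensitivity, reached 1 FPKM in 18 cells with a median of 18.3 and a highest value of 73.0 FPKM, and was the highest gamma gene in 9 cells. Gabrg3, which encodes gamma-3, reached it in 12 cells with a median of 1.04 and a highest value of 66.6 FPKM, and was the highest gamma gene in cells 6 and 19.

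Less common subunits were frequent. Gabre encodes epsilon, which makes GABA-A receptors less sensitive to benzodiazepines and is known from hypothalamus and brainstem, and Gabrq encodes theta, which often occurs with it. Gabre reached 1 FPKM in 19 cells (82.6%, exact 95% interval 61.2 to 95.05%), with a median of 11.8 and a highest value of 104 FPKM in cell 2. Gabrq reached it in 18 cells (78.3%, interval 56.3 to 92.5%), with a median of 10.6 and a highest value of 67.5 FPKM in cell 15. Both were present in 15 cells, and cell 17 was the 1 cell with neither. The rho genes, known from retina, were nearly silent, with Gabrr2 in 3 cells and Gabrr1 in 1.

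GABA-B receptors are obligate dimers in which the product of Gabbr1 binds GABA and that of Gabbr2 couples to the G protein. Gabbr1 (chromosome 17, 37045966 to 37074305, plus strand) was among the steadiest members, with a lowest value of 10.3, a median of 35.8 and a highest value of 64.6 FPKM in 23 cells. Gabbr2 was at 1 FPKM or more in 9 cells (39.1%, interval 19.7 to 61.5%) and had a median of 0.313 and a highest value of 14.8 FPKM in Kiss1-high cell 23. Gabbr1 made up a median of 99.2% of the GABA-B sum, and 14 cells therefore had 1 subunit of the dimer above the threshold and the other below it.

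Genes that partner these receptors were measured from lists of 8 kinds. Among 13 AMPA and kainate auxiliary genes, 5 reached 1 FPKM in 12 or more cells. Cnih2, a cornichon that slows AMPA channel closing, did so in 23 cells with a median of 34.8 FPKM, and Cacng2, which encodes the transmembrane regulator stargazin, in 23 with a median of 7.40 FPKM. Shisa9, Cacng8 and Cacng7, further AMPA regulators, did so in 22, 21 and 13 cells. Of 18 glutamate receptor scaffold genes measured, 12 did so in 12 or more cells. Nsf, an ATPase that binds GluA2, had a median of 129 FPKM in 23 cells, and the postsynaptic density genes Shank1, Dlg4, Dlg1 and Dlgap4 reached 1 FPKM in 23, 22, 21 and 20.

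Of 15 genes for GABA-A receptor scaffolding and assembly, 12 reached 1 FPKM in 12 or more cells. Gabarapl2, Gabarapl1 and Gabarap, a family known for trafficking and autophagy, had medians of 624, 474 and 268 FPKM in 23 cells each, and the assembly and stability genes Ubqln1 and Clptm1 had medians of 66.3 and 36.7 FPKM in 23 each. Of 8 GABA-B partner genes, 3 passed in 12 or more cells. The girk channel genes Kcnj9, Kcnj3 and Kcnj6 reached 1 FPKM in 17, 12 and 9 cells and the auxiliary genes Kctd16 and Kctd12 in 14 and 11.

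The chloride transporters that set the direction of GABA-A currents differed. Slc12a5, which encodes the extruder KCC2, reached 1 FPKM in 23 cells with a median of 26.4 FPKM, and Slc12a2, which encodes the importer NKCC1, in 6 cells with a median of 0.0715 FPKM. Among the other cotransporter genes, Slc12a7 passed in 3 cells and Slc12a4 in none. Of 5 glycine receptor genes, Glrb, which encodes the beta subunit, passed in 19 cells with a median of 17.3 FPKM, and the alpha genes Glra3, Glra1 and Glra4 in 10, 7 and 2. Glra2 passed in none.

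Of 3 RNA editing genes, Adar passed in 23 cells, Adarb1, whose product edits the GluA2 transcript, in 10 with a median of 0.823 FPKM, and Adarb2 in 2. Of 8 cerebellin and C1q-like ligand genes, 0 passed in 12 or more cells. Cbln4, C1ql2, Cbln1, Cbln2 and C1ql3 passed in 5, 4, 3, 2 and 1, and Cbln3, C1ql1 and C1ql4 in none.

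The genes of most GABA-A subunits lie in chromosomal clusters. Genes less than 2000000 bases apart were grouped. Gabrg1, Gabra2, Gabra4 and Gabrb1 lie on chromosome 5 (70751047 to 72137244), Gabre, Gabra3 and Gabrq on chromosome X (72257432 to 72838544), and Gabrr2 and Gabrr1 on chromosome 4. Gabrg3 and Gabra5 lie in 1 cluster on chromosome 7. The chromosome 5 cluster had a median summed level of 93.2 FPKM (4.19 in cell 17 to 223, and from 10.4 without that cell). The chromosome X cluster had one of 23.3 FPKM (1.13 in cell 17 to 141, and from 1.46 without that cell), and the ranges overlapped over cells.

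The promoters of the chromosome 5 genes and of the chromosome X pair Gabre and Gabrq are shown because they hold the neighbouring genes that varied together across cells, as described next, beside Gabra4, a scarce gene of the same cluster. The windows run from 250 bases before to 50 after each gene's start in RefSeq on GRCm38.p6, and 32 of the 47 members had an entry. Gabrb1 had 2 entries, and the one nearest to its locus start in the table is shown. They are Gabrg1 at chr5:70842568-70842867 (minus strand), Gabra2 at chr5:71095800-71096099 (minus), Gabra4 at chr5:71658259-71658558 (minus), Gabrb1 at chr5:71699682-71699981 (plus), Gabre at chrX:72274672-72274971 (minus) and Gabrq at chrX:72824928-72825227 (plus). Capitals mark GGGCGG on either strand, the core of a GC box.
Gabrg1: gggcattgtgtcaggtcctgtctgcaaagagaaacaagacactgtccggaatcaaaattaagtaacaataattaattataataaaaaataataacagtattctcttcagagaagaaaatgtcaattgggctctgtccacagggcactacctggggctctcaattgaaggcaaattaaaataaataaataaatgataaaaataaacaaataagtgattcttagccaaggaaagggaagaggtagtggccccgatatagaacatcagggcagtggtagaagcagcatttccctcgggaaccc
Gabra2: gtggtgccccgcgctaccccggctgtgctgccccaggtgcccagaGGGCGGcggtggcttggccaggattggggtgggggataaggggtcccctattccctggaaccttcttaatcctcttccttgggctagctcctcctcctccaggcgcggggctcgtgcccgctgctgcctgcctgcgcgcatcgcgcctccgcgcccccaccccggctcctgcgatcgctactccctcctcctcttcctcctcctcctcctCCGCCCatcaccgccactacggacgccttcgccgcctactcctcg
Gabra4: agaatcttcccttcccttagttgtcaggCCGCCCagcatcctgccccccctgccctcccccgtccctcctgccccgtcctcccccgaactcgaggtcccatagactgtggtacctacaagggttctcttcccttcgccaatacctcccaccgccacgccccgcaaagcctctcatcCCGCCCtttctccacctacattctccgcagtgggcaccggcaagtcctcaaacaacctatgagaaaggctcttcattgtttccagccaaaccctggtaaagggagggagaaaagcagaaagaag
Gabrb1: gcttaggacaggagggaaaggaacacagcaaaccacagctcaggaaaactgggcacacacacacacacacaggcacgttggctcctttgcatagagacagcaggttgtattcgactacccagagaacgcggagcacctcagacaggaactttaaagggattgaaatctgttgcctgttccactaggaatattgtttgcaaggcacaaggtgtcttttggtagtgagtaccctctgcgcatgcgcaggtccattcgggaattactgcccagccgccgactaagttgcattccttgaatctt
Gabre: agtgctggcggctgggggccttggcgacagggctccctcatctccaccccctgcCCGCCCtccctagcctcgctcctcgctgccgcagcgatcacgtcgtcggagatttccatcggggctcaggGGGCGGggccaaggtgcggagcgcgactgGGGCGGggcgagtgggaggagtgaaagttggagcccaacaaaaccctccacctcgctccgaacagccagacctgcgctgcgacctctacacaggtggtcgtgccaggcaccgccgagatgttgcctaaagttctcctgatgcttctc
Gabrq: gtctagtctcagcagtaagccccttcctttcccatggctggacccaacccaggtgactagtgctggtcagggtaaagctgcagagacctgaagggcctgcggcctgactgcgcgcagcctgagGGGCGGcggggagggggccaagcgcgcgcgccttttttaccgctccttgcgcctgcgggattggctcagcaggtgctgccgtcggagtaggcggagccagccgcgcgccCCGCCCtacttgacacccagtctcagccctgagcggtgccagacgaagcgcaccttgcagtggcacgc
Searched on both strands, GGGCGG was found 2 times in the windows of Gabra2, Gabra4 and Gabrq, 3 times in that of Gabre and not in those of Gabrg1 and Gabrb1. Of all 32851 promoter windows of the same length, 35.7% held it. TATAAA was found in none of the 6, against 13.6% of all windows. The number of CpG dinucleotides was 25 for Gabra2, 24 for Gabre, 23 for Gabrq, 12 for Gabra4, 9 for Gabrb1 and 3 for Gabrg1, beside a median of 7 over all windows. Gabra2, with 25 CpGs, and Gabrb1, with 9, were both found in 22 cells, while Gabra4 with 12 was found in 4. These letters describe the windows and say nothing of which factors act there.

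Some neighbouring genes on chromosomes 5 and X varied together across cells. Pairs were formed among 8 GABA-A genes found at 1 FPKM in 12 or more cells (Gabra2, Gabra5, Gabrb1, Gabrb2, Gabrg1, Gabrg3, Gabre and Gabrq). Further GABA-A genes at that level were not used here, so the pairs cover the clusters in part and their medians describe these pairs, not clusters in general. The 5 pairs within a cluster had a median Spearman's rho of 0.40 (-0.25 to 0.53) over 23 cells, and the 23 pairs between clusters a median of 0.13 (-0.39 to 0.51). Of the 10 highest pairs, 4 were within a cluster. These were Gabra2 with Gabrb1 at 0.53, Gabre with Gabrq at 0.52, Gabrb1 with Gabrg1 at 0.40 and Gabra2 with Gabrg1 at 0.38. The remaining pair within a cluster, Gabra5 with Gabrg3, stood at -0.25.

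Among the pairs between clusters, Gabra5 with Gabre reached 0.51 and Gabra2 with Gabre 0.38, and Gabra2 with Gabrg3 was lowest at -0.39. The medians within and between clusters were 0.45 and 0.16 after centring each title set, 0.36 and 0.13 after rescaling cells, and 0.36 and 0.07 without cell 17. All pairs share the same 23 libraries and their depth, genes recur in several pairs, and the values are given without a test.

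**Figure D3:**
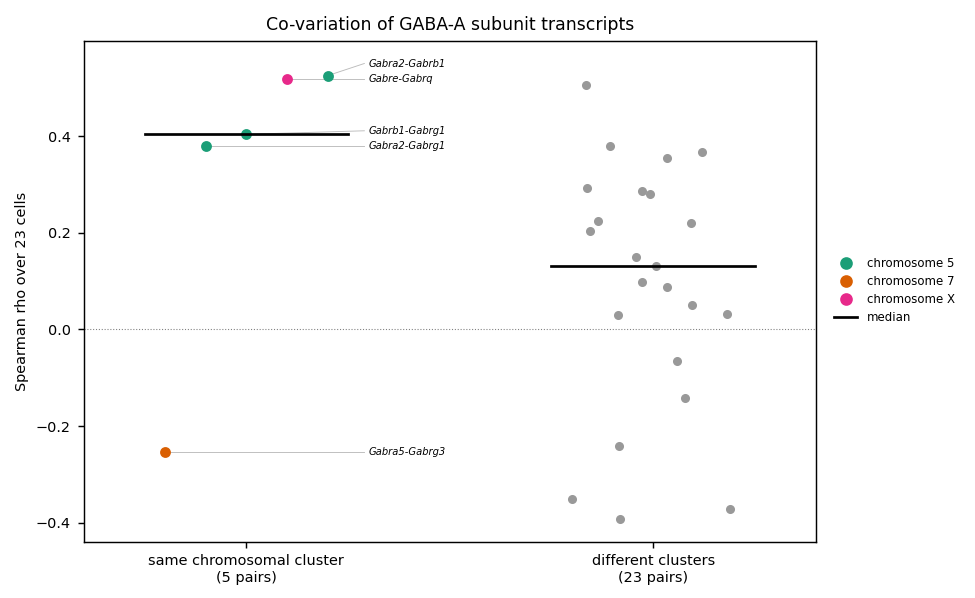
Spearman's rho over 23 cells for each pair of 8 GABA-A subunit genes found at 1 FPKM in 12 or more cells, for 5 pairs in the same chromosomal cluster (coloured by chromosome) and 23 pairs in different clusters (grey), with the median as a bar. The medians are 0.40 and 0.13, and the 1 pair within a cluster that lies below 0 is Gabra5 with Gabrg3.

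Receptor levels were then compared between peptide types, as the difference of mean log2(FPKM + 1), with a difference of at least 1 (2-fold) used to name a gene. The comparison was limited to genes at 1 FPKM in 3 or more cells, which 36 of the 47 members and 11697 of all genes passed. The Pomc-high and Kiss1-high cells are each set against the same 10 other cells. These other cells are not 1 type.

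At the level of classes, sums overlapped between types. The AMPA sum had medians of 95.7 FPKM in Pomc-high cells, 122 FPKM in Kiss1-high cells and 136 FPKM in other cells. The GABA-A alpha sum had medians of 38.0, 21.3 and 83.4 FPKM in the same order. In that order too, the sum of delta, epsilon, pi and theta genes had medians of 18.5, 2.36 and 35.9 FPKM. The GABA-B sum was similar, at 28.9, 38.8 and 38.5 FPKM.

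**Figure D4:**
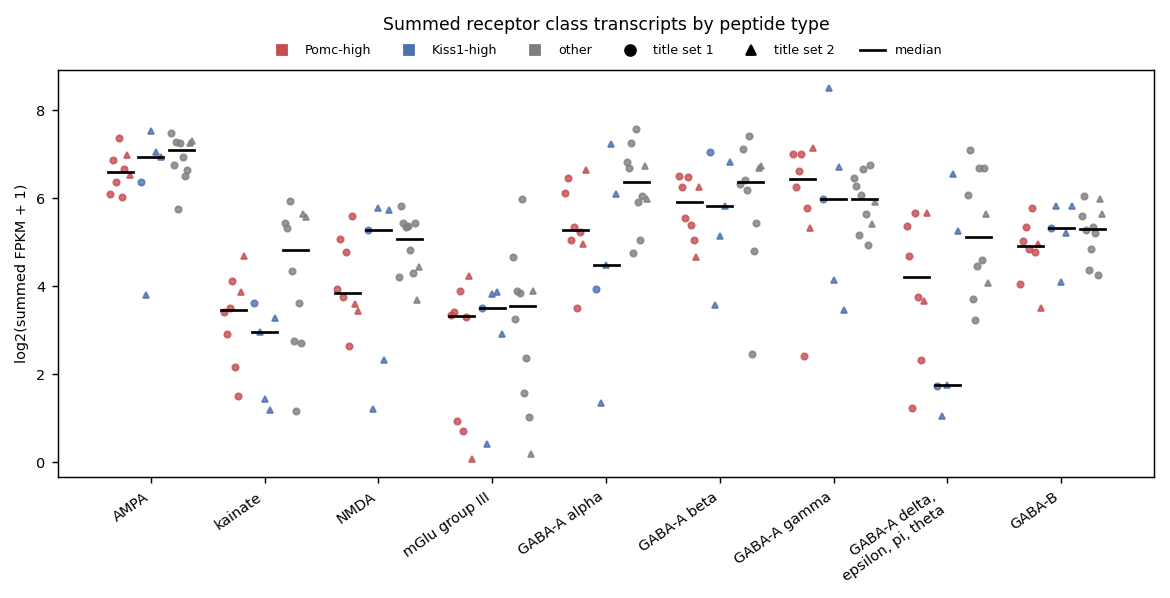
Summed FPKM of 9 receptor classes as log2(sum + 1), 1 point per cell, for Pomc-high, Kiss1-high and other cells from left to right, with circles for title set 1, triangles for title set 2 and the median as a bar. The types overlap in every class shown, and in the delta, epsilon, pi and theta class Kiss1-high cells 8, 17 and 19 lie below all 10 other cells, at 2.33, 1.05 and 2.36 FPKM against 8.37 FPKM or more.

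In Pomc-high cells, 1 of the 36 members was higher than in other cells by 1 or more on the log2 scale (2.78%, against 8.45% of all genes) and 5 were lower (13.9%, against 6.24% of all genes). Within set 1, the counts were again 1 and 5 of 36, beside 11% and 7.49% of all genes. Without Pomc-high cell 5, 9 members were lower, and without any 1 of Pomc-high cells 4, 5, 6, 12 and 13, 2 members were higher. The share of all genes was not computed with these cells left out, so a shift in the members alone cannot be read from the counts. The median difference was -0.30 over the members and 0.02 over all genes. None of the members had values that did not overlap between Pomc-high and other cells, as was true of all but 0.0171% of all genes.

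The gene that was higher was Gabrg3. Its values in Pomc-high cells had a lowest value of 0.830, a median of 6.30 and a highest value of 66.6 FPKM, and in other cells a lowest value of 0.0835, a median of 0.246 and a highest value of 28.1 FPKM. It reached 1 FPKM in 6 of 8 Pomc-high cells and 4 of 10 other cells, and the highest values were in Pomc-high cells 6, 22 and 4. The difference was 2.16 (mean log2 values 3.23 ± 2.22 in Pomc-high cells and 1.07 ± 1.51 in other cells, SD over cells), 1.90 within set 1, and between 1.75 and 2.58 when any 1 cell of either group was left out. Gabrg3 made up a median of 17.3% of the gamma sum in Pomc-high cells and 0.464% in other cells.

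Among the lower genes, Grik1 differed most. It had a median of 0.179 FPKM (0 to 5.82) in Pomc-high cells and 16.5 FPKM (0.0479 to 57.0) in other cells, a difference of -2.16, and -1.54 within set 1. It came under 1 in size, at -0.51, with a Pomc threshold of 500 FPKM, which moves other cells 3 and 16 (922 and 599 FPKM of Pomc), both high in Grik1, into the Pomc-high group. The groups overlapped, since 5 of the 10 other cells were below 1 FPKM too. Gabre had a median of 5.04 FPKM (0.180 to 34.8) in Pomc-high cells and 24.6 FPKM (2.82 to 104) in other cells, a difference of -2.11, and -2.60 within set 1. All 10 other cells had Gabre at 1 FPKM, against 5 of 8 Pomc-high cells, while its neighbour Gabrq stood at -0.0043 by the same measure.

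The remaining lower genes were nearer to the threshold. Gabra2 had a median of 18.5 FPKM (1.93 to 56.5) in Pomc-high cells and 58.7 FPKM (1.70 to 109.6) in other cells, a difference of -1.33, and -0.96 within set 1. It was -0.40 and -0.23 with Pomc thresholds of 500 and 2000 FPKM. The threshold of 2000 FPKM moves Pomc-high cells 11, 21 and 22 to the other cells, so both groups change. Grm2 reached 1 FPKM in 1 of 8 Pomc-high cells and 5 of 10 other cells, with a difference of -1.26, -1.35 within set 1 and -0.56 with pseudocount 5. Gabrg1 had a median of 8.93 FPKM (0.305 to 57.9) in Pomc-high cells and 24.3 FPKM (0.282 to 62.6) in other cells. Its difference of -1.04 was -0.49 within set 1, -0.57 and -0.65 with Pomc thresholds of 500 and 2000 FPKM and -0.63 with Pomc-high cell 6 left out, and it came under 1 in size in 9 of the 18 settings that left out 1 cell of either group.

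Markers of other cell types and of transmitter also differed between Pomc-high and other cells. The tanycyte and ependyma list, of which 4 of 6 genes reached 1 FPKM in at least 1 Pomc-high cell and 4 in at least 1 other cell, summed to a median of 67.8 FPKM (0.668 to 259) in Pomc-high cells and 3.44 FPKM (0.317 to 78.1) in other cells. Most of it was Vim, with medians of 51.8 FPKM in Pomc-high cells and 1.27 FPKM in other cells, and Rax, a defining tanycyte gene, was listed at 0 in all cells. The genes of this list did not move together, with differences of 2.61 for Vim and 1.17 for Rarres2 but -0.33 for Foxj1 and -1.17 for Frzb. The astrocyte list had 2 of its 7 genes at 1 FPKM in some Pomc-high cell and 2 in some other cell, and summed to a median of 0.722 FPKM (0.0667 to 166) in Pomc-high cells and 0.191 FPKM (0 to 5.99) in other cells. Its highest sum was mainly Gfap in Pomc-high cell 12, at 165 FPKM, and the difference for Gfap was 1.22. Slc17a6 had a median of 16.7 FPKM in Pomc-high cells and 51.0 FPKM in other cells, and the 3 genes of the GABA list, Gad1, Gad2 and Slc32a1, summed to a median of 101 FPKM (22.2 to 199) in Pomc-high cells and 35.9 FPKM (0.876 to 338) in other cells. Their part in the differences above was not tested.

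In Kiss1-high cells, 0 of the 36 members were higher by 1 or more, against 7.06% of all genes, and 10 were lower (27.8%, against 21.8% of all genes). The median difference was -0.51 over the members and -0.29 over all genes, and Kiss1-high cells had a median of 6331 genes at 1 FPKM against 7005.5 in other cells. Taken relative to that median, 7 members (19.4%) were lower by 1 or more, beside 14.4% of all genes. Without cell 17, 6 members (16.7%) were lower, beside 17.2% of all genes. Within set 2, which has just 2 other cells, 2 were higher and 9 were lower (5.56% and 25%), beside 12.2% and 31.2% of all genes. The members' share of lower genes was thus near or below that of all genes once cell 17 was left out or set 2 was taken alone. None of the members had values that did not overlap, beside 0.239% of all genes that did not. The GABA list summed to a median of 4.88 FPKM (0.421 to 157) in Kiss1-high cells and 35.9 FPKM (0.876 to 338) in other cells, Slc17a6 had medians of 81.3 FPKM in Kiss1-high cells and 51.0 FPKM in other cells, and the part of these in the differences was not tested.

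Grik1 had the largest difference. It was at 0.134, 0.0927, 0.0373, 0.0539 and 0.0713 FPKM in Kiss1-high cells 8, 17, 19, 20 and 23, and had a median of 16.5 FPKM (0.0479 to 57.0) in other cells, a difference of -2.65. All 5 Kiss1-high cells were low, and so were 5 of the 10 other cells. The difference was -2.66 without cell 17 and -5.0 within set 2. Set 2 holds just 2 other cells, 16 and 18, both high in Grik1, and none of the low other cells.

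Gabrb2 was at 0.0796, 0.0367, 0, 0.0320 and 9.76 FPKM in Kiss1-high cells 8, 17, 19, 20 and 23, with a median of 3.76 FPKM (0.110 to 15.4) in other cells. It thus reached 1 FPKM in 1 of 5 Kiss1-high cells and 8 of 10 other cells. The difference was -1.56, -1.39 without cell 17, -2.22 within set 2 and -0.63 with pseudocount 5.

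Gabra5 was at 0.388, 0.461, 0.185, 56.1 and 29.1 FPKM in Kiss1-high cells 8, 17, 19, 20 and 23, with a median of 21.7 FPKM (0.135 to 52.7) in other cells. Cells 8, 17 and 19 were low and cells 20 and 23 high. The difference was -1.68, -2.54 without cell 20, -1.22 without cell 17, -0.89 with pseudocount 5 and -0.50 within set 2. Its locus overlaps Gm9962 on the opposite strand.

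Gabrg1 was also split, but along another line, at 32.6, 0.513, 0.193, 73.0 and 0.0526 FPKM in these cells, with a median of 24.3 FPKM in other cells. Cells 8 and 20 were high and cells 17, 19 and 23 low. The difference was -1.86, -2.81 without cell 20, -1.40 without cell 17 and -2.95 within set 2. It was -0.97 with pseudocount 5, and it reversed to 0.34 with a Kiss1 threshold of 1000 FPKM. That threshold moves cells 19 and 23, both low in Gabrg1, from the Kiss1-high group to the other cells, so both groups changed. Gabre was at 1.92, 0.423, 2.14, 41.9 and 20.2 FPKM, with a median of 24.6 FPKM in other cells. Its difference was -1.79, -1.24 without cell 17, -0.76 within set 2 and -0.85 with all remaining cells as comparison.

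Gria2 was at 46.1, 10.7, 51.0, 40.6 and 13.1 FPKM in Kiss1-high cells 8, 17, 19, 20 and 23, with a median of 69.4 FPKM (28.5 to 114) in other cells. Cells 17 and 23 lay below all 10 of these other cells. The difference was -1.31, -0.99 without cell 17 and -1.44 within set 2. Gria2 made up a median of 31.1% of the AMPA sum in Kiss1-high cells (10.8 to 83.1%) and 61.3% in other cells (27.2 to 76.0%). The range in Kiss1-high cells thus spanned that of other cells.

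Gabrq and Gabra2 were less stable, coming under 1 in size in 6 and 7 of the 15 settings that left out 1 cell of either group. Their differences were -1.14 and -1.06 with all cells and -0.75 and -0.29 without cell 17. Gabrq was at -0.69 without cell 8, -0.65 without cell 19 and -2.0 without cell 20, and Gabra2 at -1.68 without cell 20. Within set 2, they were -1.29 and -2.01, relative to the median of all genes -0.85 and -0.77, and with pseudocount 5 -0.61 and -0.84.

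Grik1, Gabra2, Gabrg1 and Gabre were lower by 1 or more in both Pomc-high and Kiss1-high cells. Both comparisons use the same 10 other cells, so these values are given side by side and not as a shared result. Against other cells, Pomc-high cells had -2.16 for Grik1, -1.33 for Gabra2, -1.04 for Gabrg1 and -2.11 for Gabre, and Kiss1-high cells had -2.65, -1.06, -1.86 and -1.79 for the same genes.

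**Figure D5:**
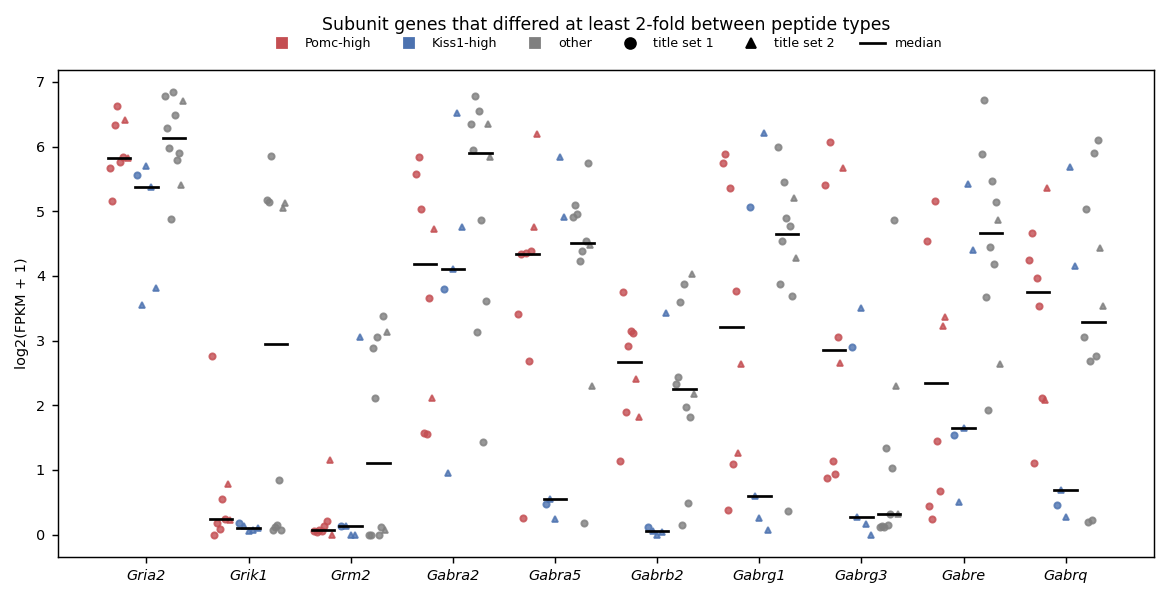
Level of 10 subunit genes that differed by at least 1 in mean log2(FPKM + 1) between Pomc-high or Kiss1-high cells and other cells, with 1 point per cell, circles for title set 1, triangles for title set 2 and the median as a bar. Gabrg3 reaches 1 FPKM in 6 of 8 Pomc-high cells, against 4 of 10 other cells, and Grik1 is high in 5 of the 10 other cells alone, apart from 1 Pomc-high cell at 5.82 FPKM.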

How the data were processed

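The 23 libraries, each of 1 GFP-positive arcuate neuron, were made with SmartSeq2 amplification followed by the NuGen Ovation Rapid kit, as the labels' protocols give it. CASAVA 1.8, TopHat, Cufflinks and the build mm10 are named in the list per the submitters' processing notes, where neither further versions nor an annotation or filters are given. The authors deposited 1 table of FPKM per gene and cell. FPKM scales genes per length, but where a cell makes much of 1 peptide transcript, all its remaining values are set lower. Read depth is unknown, reads carry no molecular identifiers, and FPKM sums ran from 379513 to 687511 per cell.

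Of 23896 rows, 12 without a gene and 286 identical copies were left out, 27 names turned into dates were kept apart, and rows of 1 symbol were summed (23400 genes). Locus starts were raised by 1, because 9292 of 21476 loci started 1 lower than in RefSeq with an equal end and 263 matched in both. Strands came from GENCODE. Differences are of mean log2(FPKM + 1). This step was tested on simulated data with changes of 3 and -3 placed in genes of higher level. It was not tested there for changes near 1 or for genes near the floor. Shares have exact Clopper-Pearson 95% intervals.

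Members, lists, peptide types and alternatives were chosen with earlier results of these data known. By rule, the text names members at 1 FPKM in 12 or more cells, the most frequent member of each class with none, members past a difference of 1, and members in no cell, and of each partner list up to 5 most frequent genes and those in no cell. Some members and partner genes are not reported here by name, though sums and counts over classes and lists include them. Other members and markers were named after their values were seen. Alternatives were other thresholds, pseudocounts, scalings, title sets alone and cells left out; leaving out cell 17, centring on the median of all genes and the rank alternatives were chosen after seeing the data. Computation used Python 3.11.15 with matplotlib 3.10.9, scipy 1.17.1, pandas 2.3.3 and numpy 2.4.6.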

Additional observations from a re-analysis of the deposited data

Results flagged for a closer look

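A cell stood apart from the others of its peptide type, by a gap wide for the range of the group, in 12 of 93 groups of values examined. For independent groups the critical value used would be passed by chance in about 1 in 20, but the groups here overlap, since class sums contain single genes that were also examined. The values below are given without an explanation. Among Pomc-high cells, cell 21 had 1.27 FPKM of group II metabotropic genes (others 0.0848 to 0.284), cell 12 had 4.35 FPKM of GABA-A gamma genes (others 38.9 to 139) and cell 11 had 3.97 FPKM of rho genes (others at most 0.139). Among Kiss1-high cells, cell 23 had 7.34 FPKM of group II metabotropic genes (others 0.0526 to 0.226), 4.08 FPKM of rho genes (others listed at 0) and 9.76 FPKM of Gabrb2 (others at most 0.0796). Kiss1-high cell 17 had 0.334 FPKM of group III metabotropic genes (others 6.55 to 13.6), of which Grm7 was 0.275 FPKM (others 6.40 to 13.5). Among other cells, cell 10 had 4.46 FPKM of GABA-A beta genes (others 26.9 to 168) and 0.282 FPKM of Gabrg1 (others 11.9 to 62.6), cell 15 had 28.1 FPKM of Gabrg3 (others 0.0835 to 3.91) and cell 1 had 7.62 FPKM of rho genes (others at most 0.231).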

How the results depend on the processing

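No paired analysis was possible because all 23 cells form 1 group and the labels tie no cell to a mouse. The count of 21 members in 12 or more cells was 13 at 5 FPKM and 12 at 10 FPKM. Rescaling each cell to 1000000 gave median sums of 223 for AMPA, 51.4 for NMDA, 122 for alpha, 145 for beta and 68.2 for GABA-B genes; leaving out short loci and the 10 highest genes as well gave 274, 63.6, 139, 169 and 85.01, and 155 for gamma genes. As a share of the FPKM summed over cells, Grik1 was 50.9% of kainate genes (median share over cells 4.20%), Grm2 95.9% and Grm3 4.08% of group II genes. In set 2 alone, Gabrr1 was 48.9% and Gabrr2 51.1% of rho. For Pomc-high cells, members higher were 3 with pseudocount 0.1 and 2 with the stricter rescaling, with all remaining cells as comparison or with a Pomc threshold of 500 FPKM; members lower were 3 with pseudocount 5 and 2 under each of the last pair of settings. Leaving out 1 Pomc-high cell gave 1 to 2 higher and 4 to 9 lower, the 9 without cell 5. For Kiss1-high cells, 2 members were higher within set 2 and 1 with a threshold of 1000 FPKM; 17 were lower with pseudocount 0.1 and 3 with pseudocount 5. Leaving out 1 Kiss1-high cell gave 0 to 1 higher and 6 to 14 lower, the 6 without cell 17 and the 14 without cell 23. Among these alternative counts for both types, shares of all genes were computed only within set 2 and for lower genes without cell 17, as given above. The direction reversed for Gabrg1 (0.34) at 1000 FPKM of Kiss1 in Kiss1-high against other cells. In that setting cells 19 and 23 count among the other cells, and the cause of the reversal was not tested further. Another 222 alternative values of sums, shares and counts stayed within the limits used, and of single-gene differences 180 kept their direction and side of 1, 33 kept the direction and came under 1, and 1 reversed.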

Other observations

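Over all classes, 153 pairs of 18 members found in 12 or more cells were compared by rank over the 23 cells, as a description without a test. Further members at that level were not used, so highest and lowest below refer to these pairs alone. The highest pair was Gria1 with Gria3 at Spearman's rho 0.54, and Gria1 with Gria4 stood at 0.51, so 2 AMPA pairs were among the 5 highest. Grm7 and Gabrg1 stood at 0.52. The lowest were Gabrg3 with Gabbr1 at -0.58, Gabrg3 with Gria3 at -0.58 and Grik2 with Grin2a at -0.54. Without cell 17 these 3 were -0.58, -0.63 and -0.53. All points share the depth of their libraries.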
